A study of Oryza sativa with 4 samples.

Results

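The cellulose synthase-like (CSL) genes of the classes CSLA, CSLC, CSLD, CSLE, CSLF and CSLH were followed in the flag leaf collar of rice. They were chosen by name. A probe set was taken when its single annotated gene has a symbol or synonym made of CSL, a class letter and a number. The rule uses no measured value, but the group was chosen with earlier results of these data known. This gave 24 probe sets, for 20 genes, of the 57258 on the array that are not AFFX controls. The CSLA class had 4 genes, CSLC 5, CSLD 4, CSLE 2, CSLF 4 and CSLH 1. A further 6 genes with such names (CSLA3, CSLA4, CSLE6, CSLF3, CSLF4 and CSLF9) were not matched to a probe set and were not analysed here. The study compared plants of the lc1 mutant with wild-type plants, each genotype hybridised on 2 Affymetrix Rice Genome arrays, and took RNA from a 1-cm piece of the lamina joint, the hinge between blade and sheath. The design text calls the replicates biological, and the labels state neither the allele of lc1 nor the variety or age of the plants.

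CSL proteins are relatives of cellulose synthase that sit in membranes and build the backbones of wall polysaccharides other than cellulose. CSLA enzymes make mannan and glucomannan, CSLC enzymes the glucan backbone of xyloglucan, and CSLF and CSLH enzymes the mixed-linkage glucan typical of grasses, for which CSLF6 is the main enzyme in rice. CSLD genes are known from tip-growing cells and from leaf shape, and the product of the CSLE class is not settled. The lamina joint sets the leaf angle, and walls of its cells must yield for it to bend. In the literature LC1 is GH3.1, which joins auxin to amino acids, and the gain-of-function lc1 line has a wider leaf angle.

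All signals below are MAS 5.0 signals after each array was scaled to the same median of 13.25, in arbitrary units. An array's floor, a measure of background, is the 95th percentile of 23 control probe sets without a rice target, which lay at 11.3 and 13.1 in lc1 and at 10.1 and 13.0 in the wild type. The deposited medians were 16.1 and 13.0 on the lc1 arrays and 11.8 and 12.1 on the wild-type arrays. GH3.1 had signals of 454.1 and 426.1 in lc1 and lay under the floor on both wild-type arrays (1.12 and 9.86), at least 38.4-fold higher in the mutant (limma adjusted p = 0.0557). The lamina joint markers LG1 and IBH1 were above the floor on all 4 arrays, with a summed signal of 216.9 and 218.2 in lc1 and 275.3 and 400.5 in the wild type, and their part in the CSL values was not tested. Of 3 green blade genes, rbcS (6338 to 7867 over the arrays) and CAB2R (5174 to 6313) were bright and RBCS1 was under the floor on every array. As for RNA quality, the Gapdh controls gave a 5'/3' ratio of 0.246 and 0.139 in lc1 and 0.164 and 0.237 in the wild type. Signal was thus far weaker at the 5' end than at the 3' end on every array. Its part in differences between probe sets of a gene was not tested. With 2 arrays per genotype the precision is limited throughout.

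In the wild-type collar each class had at least 1 gene above background, and 12 of the 20 genes lay above the floor on all 4 arrays. By class these were 3 of 4 CSLA genes, 4 of 5 CSLC genes, 1 of 4 CSLD genes, both CSLE genes, 1 of 4 CSLF genes and the single CSLH gene. Another 6 genes (CSLA9, CSLC3, CSLD5, CSLF2, CSLF7 and CSLF8) were under the floor on all 4 arrays. CSLD1 and CSLD4 lay above the floor on 2 and 1 of the 4 arrays. Signals of different probe sets depend on the probes and are not set against each other, so that class levels are given only as counts above the floor.

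**Figure D1:**
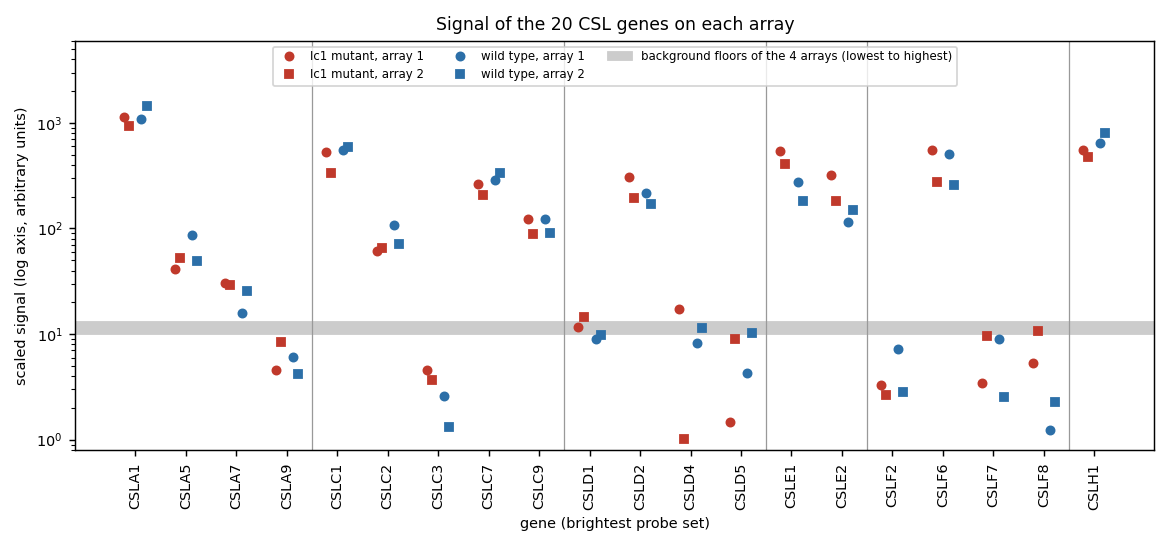
Scaled signal (log axis, arbitrary units) of the brightest probe set of each of the 20 CSL genes on the 4 arrays, lc1 left of wild type within each gene, with the range of the array floors in grey. The 12 genes above the floor on every array lie above the grey band, CSLA7 closest to it (15.7 on wild type array 1). Another 6 lie under the floor on every array.

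The comparison of the genotypes asks which wall polysaccharide genes differ in the mutant collar. No CSL gene passed the test after adjustment. GH3.1 did not pass it either (limma adjusted p = 0.0557), so not passing does not show that a gene is unchanged. Among the 12 genes above the floor on all 4 arrays, the largest differences were those of CSLE1 and of the brightest probe set of CSLE2, each brighter on both lc1 arrays than on either wild-type array. Of the other 2 probe sets of CSLE2, 1 had lc1 below the wild type and 1 overlapped. CSLC1, CSLC2, CSLC7 and CSLH1 had both lc1 arrays below both wild-type arrays, by smaller differences. That order held for 28.6% of the tested CSL genes, beside 23.2% of all tested probe sets. The differences of the CSLA, CSLD and CSLF genes went both ways or were smaller than their error.

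The test was limma on log2 signals over 34355 probe sets, of which 14 represented a CSL gene by its brightest probe set. The 6 genes under the floor on every array were also below the filter on dim probe sets and were not tested. At a limma p under 0.05 after Benjamini-Hochberg adjustment, 0 of 14 CSL genes were called, beside 9 of all tested probe sets (0.0262%). At an unadjusted limma p under 0.05, 2 of 14 were called, both higher in lc1, beside 8.16% of all tested probe sets in either direction and 3.39% higher. For 4 of 14 CSL genes (28.6%) both signals in lc1 exceeded both in the wild type, beside 16.4% of all tested probe sets. For 4 of 14 (28.6%) both lay below, beside 23.2%. CSLE2 enters the counts of higher genes by a probe set that was the brightest of its 3 through its signal in lc1. The median log2 difference of the 14 genes was -0.14, beside -0.05 over all tested probe sets. Differences are lc1 minus wild type, with the limma standard error (SE), and a 95% interval where given.

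In the CSLE class, CSLE1 had scaled signals of 539.4 and 408.6 in lc1 against 277.8 and 183.6 in the wild type. The lower lc1 array was still above the higher wild-type array. The log2 difference was 1.06 ± 0.29 (SE), or 2.08-fold, with an interval of 0.39 to 1.73 (limma adjusted p = 0.382). It ranged from 0.76 without wild type 2 to 1.35 without wild type 1 when single arrays were left out, with limma adjusted p from 0.0530 to 0.930.

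CSLE2 had 324.1 and 184.0 in lc1 against 114.3 and 151.0 in the wild type on its brightest probe set. Both lc1 arrays were higher, and lc1 array 2 lay nearer to wild type array 2 than to lc1 array 1. The log2 difference was 0.89 ± 0.34 (SE), with an interval of 0.12 to 1.67 (limma adjusted p = 0.566). Without lc1 array 2 it was 1.30 and passed the test (limma adjusted p = 0.0456), in a fit that called 3.39% of all tested probe sets, and without lc1 array 1 it was 0.49 (adjusted p = 0.843), so the call and the size moved with a single array.

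The 3 probe sets of CSLE2 did not give the same difference. Their mean log2 signals over the 4 arrays were alike, so that which one counts as the brightest rested on a small margin. In the wild type alone the brightest one was the dimmest of the 3, with a mean of 132.7 against 192.1 and 148.7. It ranked first through its lc1 mean of 254.0, against 166.1 and 220.8, so its choice was not independent of the difference. The second, whose identifier ends in _a_at, had 176.7 and 155.4 in lc1 against 177.3 and 206.9 in the wild type, a log2 difference of -0.21 ± 0.27 (SE) with lc1 lower on both arrays. The third had 298.8 and 142.8 in lc1 against 127.2 and 170.2 in the wild type, a difference of 0.49 ± 0.38 (SE) with overlapping genotypes. Its identifier ends in _x_at, the mark of probes that can match other transcripts. Without lc1 array 1 that difference was -0.04, and without lc1 array 2 it was 1.02. Direction in CSLE2 therefore differed between probe sets of the same gene, whereas CSLE1 was measured by a single probe set. Which transcripts of CSLE2 each probe set reads was not tested.

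**Figure D2:**
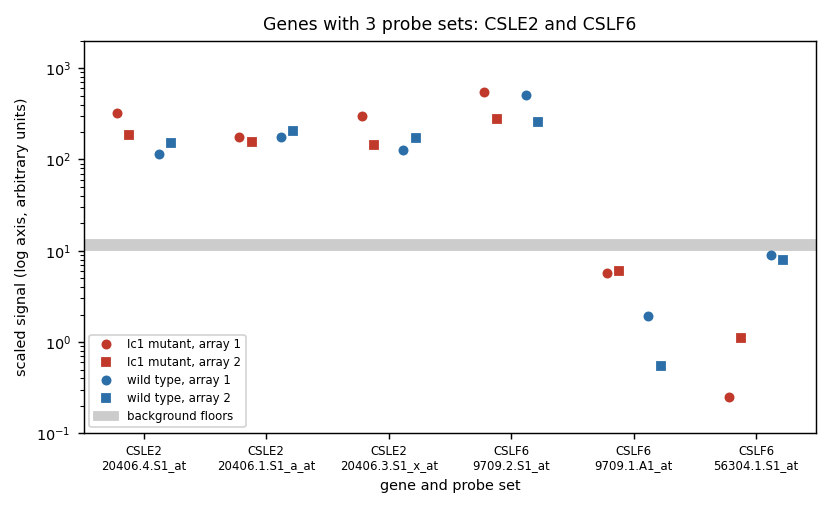
Scaled signal (log axis, arbitrary units) of the 3 probe sets of CSLE2 and the 3 of CSLF6 on each array, lc1 left of wild type, with the array floors in grey. Both lc1 points are highest for only 1 of the 3 CSLE2 probe sets, and 2 of the 3 CSLF6 probe sets lie under the floor on every array.

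The CSLC class, of the xyloglucan backbone, had a median log2 difference of -0.44 over 4 tested genes, each of them negative, with 0 genes past the test (limma adjusted p from 0.704 to 0.990). CSLC1 had 526.5 and 337.5 in lc1 against 557.4 and 592.4 in the wild type, a log2 difference of -0.45 ± 0.27 (SE). CSLC7 had 263.4 and 206.1 in lc1 against 288.7 and 338.8 in the wild type, a difference of -0.42 ± 0.27 (SE), on a probe set that can match other transcripts; it ranged from -0.60 to -0.25 without single arrays. CSLC2 had 61.9 and 65.4 in lc1 against 107.0 and 71.5 in the wild type, a difference of -0.46 ± 0.33 (SE), which was -0.17 without wild type 1 and -0.75 without wild type 2.

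In these 3 genes the genotypes did not overlap, with lc1 below, as in 23.2% of all tested probe sets. The gap between the nearest arrays was small, as for CSLC1 between lc1 array 1 and wild type array 1. CSLC9 overlapped almost fully, with 122.8 and 88.9 in lc1 against 123.9 and 90.7 in the wild type, a difference of -0.02 ± 0.32 (SE). CSLC3 was under the floor throughout, at 4.61 and 3.67 in lc1 and 2.58 and 1.31 in the wild type. The class median was -0.51 without lc1 array 1 and -0.19 without lc1 array 2. For CSLC1 alone these values were -0.77 (limma adjusted p = 0.374) and -0.13 (adjusted p = 0.884).

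CSLH1, of the second family that makes mixed-linkage glucan, had 548.9 and 479.0 in lc1 against 641.7 and 808.5 in the wild type. Both lc1 arrays were lower, and the log2 difference was -0.49 ± 0.23 (SE), with an interval of -1.02 to 0.04 (limma adjusted p = 0.634). It ranged from -0.66 without wild type 1 to -0.32 without wild type 2. CSLF6 gave no such order. Its bright probe set had 548.5 and 278.5 in lc1 against 510.1 and 259.2 in the wild type, a log2 difference of 0.10 ± 0.41 (SE) with an interval of -0.82 to 1.03.

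In CSLF6 array 1 of each genotype was close to 2-fold above array 2 (1.97-fold in lc1 and 1.97-fold in the wild type), so the spread within a genotype exceeded the difference between genotypes. The sign of the CSLF6 difference turned with a single array, at -0.39 without lc1 array 1 and -0.38 without wild type 2. The other probe sets of CSLF6 lay under the floor on all 4 arrays, at 0.25 to 8.98, and say nothing of the gene beyond that. CSLF2 (2.65 to 7.19 over the arrays), CSLF7 (2.52 to 9.68) and CSLF8 (1.24 to 10.6) were under the floor as well, and no fold is given for them.

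Among these genes some are neighbours in the rice gene table. CSLF8 and CSLF2 belong to a run of CSLF genes, CSLF9, CSLF8, CSLF2, CSLF4 and CSLF3, with at most 2 other genes between one and the next. CSLF7 lies 9 genes away from CSLH1 on the same chromosome. CSLH1 was above the floor on every array while CSLF7 was above it on none. CSLE1 is directly followed by CSLE6, which was not analysed here.

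The CSLA genes, of mannan synthesis, had a median log2 difference of -0.27 over 3 tested genes, which ranged from -0.31 to -0.06 without single arrays and was 0.02 without the filter on dim probe sets. CSLA1 had 1150 and 934.9 in lc1 against 1082 and 1436 in the wild type, a log2 difference of -0.27 ± 0.22 (SE) with an interval of -0.77 to 0.24, and ranged from -0.47 without wild type 1 to -0.06 without wild type 2. CSLA5 had 41.3 and 53.0 in lc1 against 86.6 and 49.6 in the wild type, a difference of -0.49 ± 0.38 (SE). In both genes the genotypes overlapped. CSLA7 stood the other way, with 30.7 and 29.4 in lc1 against 15.7 and 25.5 in the wild type, a difference of 0.58 ± 0.42 (SE) without overlap, which was 0.23 without wild type 1 and 0.93 without wild type 2. Limma adjusted p for these genes lay between 0.744 and 0.774. CSLA9 was under the floor at 4.61 and 8.46 in lc1 and 6.06 and 4.16 in the wild type. The gene table gives the synonym CSLA9 to the gene called CSLA1 here too, and the gene identifiers, LOC4328585 for CSLA1 and LOC4341571 for CSLA9, keep them apart.

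Of the CSLD genes only CSLD2 was above the floor on all 4 arrays. It had 307.9 and 192.7 in lc1 against 215.3 and 170.3 in the wild type, a log2 difference of 0.35 ± 0.31 (SE) with overlapping genotypes (limma adjusted p = 0.792). The difference was 0.01 without lc1 array 1 and 0.69 without lc1 array 2. CSLD1, known from root hair growth in rice, had 11.6 and 14.6 in lc1 against 8.98 and 9.86 in the wild type. Both lc1 arrays were just above their floors and both wild-type arrays under theirs, a ratio of 1.13-fold with the wild-type arrays lifted to their floors. The log2 difference was 0.47 ± 0.57 (SE), with an interval of -0.83 to 1.77 (limma adjusted p = 0.848), so no rise is shown. CSLD4, a gene whose mutants have narrow, rolled leaves, was read by a probe set that can match other transcripts. It had 17.4 and 1.02 in lc1 against 8.31 and 11.4 in the wild type. Its log2 difference was -1.21 ± 1.25 (SE). Only lc1 array 1 was above its floor, and the lc1 arrays differed more from each other than from the wild type. CSLD5 was under the floor at 1.48 and 8.97 in lc1 and 4.27 and 10.2 in the wild type.

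**Figure D3:**
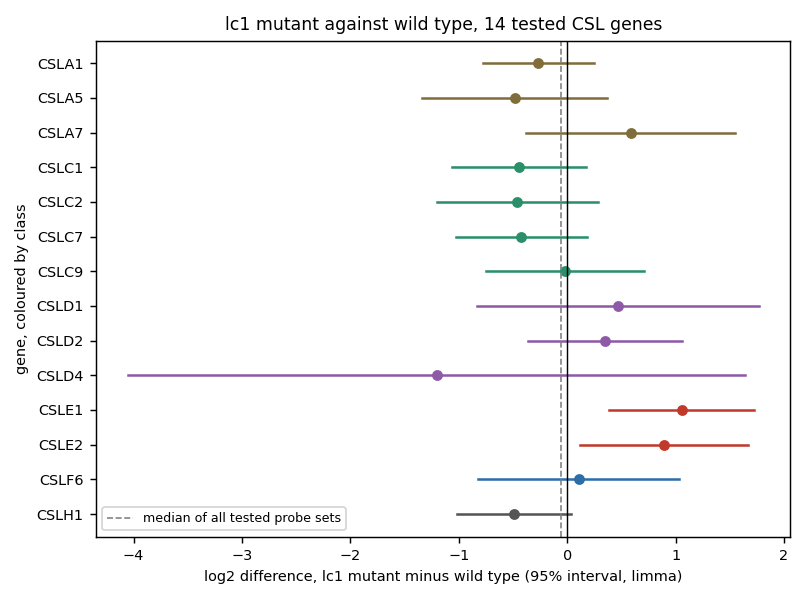
Log2 difference (lc1 minus wild type) of the 14 tested CSL genes with 95% limma intervals, coloured by class; the dashed line is the median of all tested probe sets at -0.05. The intervals of CSLE1 and of the brightest CSLE2 probe set lie above 0, and the other 12 include 0.

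The arrays of the mutant were not alike in wall genes, the CSL genes among them. Among the 14 tested CSL genes, 11 (78.6%) were brighter on lc1 array 1 than on lc1 array 2, beside 47.6% of all tested probe sets. Their median log2 difference between the lc1 arrays was 0.38, beside -0.03 over all tested probe sets. Of 35 tested genes in the other wall gene lists, 27 (77.1%) were brighter on lc1 array 1, with a median of 0.37. This was not limited to wall genes, as 5 of 6 tested epidermis markers and 3 of 3 of dividing cells were brighter there too. Of other lists, 7 of 18 MADS-box genes, 1 of 2 lamina joint markers and 0 of 2 green blade genes were. Between the wild-type arrays 6 of the 14 CSL genes (42.9%) were brighter on array 1, beside 46.3% of all tested probe sets. Their median there was -0.11. The summed signal of the 12 genes above the floor on all arrays was 4465 and 3258 on the lc1 arrays and 4021 and 4177 on the wild-type arrays, so the wild-type sums lay between those of lc1. The Gapdh ratio was the highest on lc1 array 1 and the lowest on lc1 array 2, and its part in these values was not tested. In bulk tissue fewer cells of a type and less RNA per cell cannot be told apart.

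The genes were not alike in this. CSLF6, CSLD2, CSLC9 and CSLE1 were brighter on array 1 than on array 2 in both genotypes. CSLE2, CSLC1, CSLC7, CSLA1, CSLA7 and CSLH1 were brighter on array 1 in lc1 and dimmer on array 1 in the wild type. CSLA5 and CSLC2 went the opposite way, dimmer on lc1 array 1 and brighter on wild type array 1. The labels do not say whether arrays with the same number belong together, and these values describe the spread against which the genotypes are compared.

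**Figure D4:**
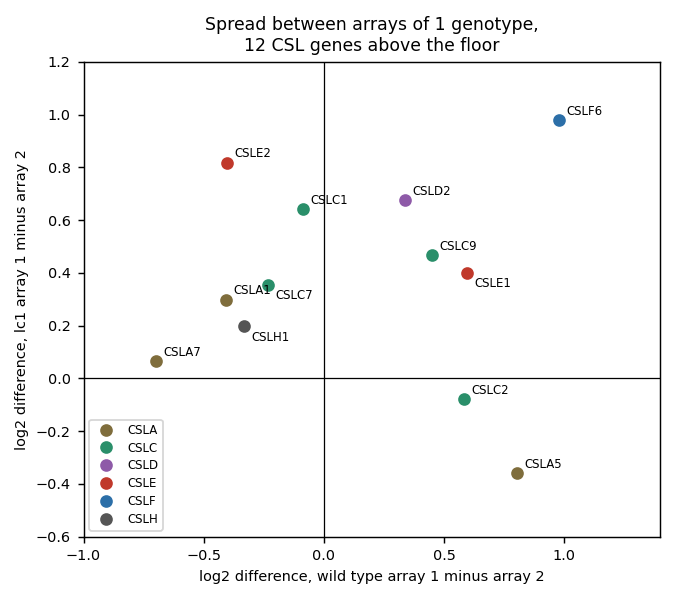
Log2 difference between the arrays of a genotype, lc1 array 1 minus array 2 (vertical) against wild type array 1 minus array 2 (horizontal), for the 12 CSL genes above the floor on all 4 arrays. All but CSLA5 and CSLC2 lie above the horizontal line at 0, and CSLF6 lies farthest to the upper right.

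Other wall genes were read from the same fit by lists of names. Of 35 tested genes in 6 lists (cellulose, xyloglucan, mannan, xylan, sugar nucleotide supply and COBRA-like), 0 passed the test, and 6 had an unadjusted limma p under 0.05 (17.1%, beside 8.16% of all tested probe sets), 2 higher and 4 lower (beside 3.39% and 4.77%). Of the 9 cellulose synthases, 4 were at that level, all lower. Among them CESA4, a secondary wall subunit, had 116.1 and 84.4 in lc1 against 217.1 and 214.3 in the wild type (log2 difference -1.12 ± 0.29, SE). CESA2, also among the 4, was near background in lc1, at 10.1 (under its floor) and 18.0 against 33.0 and 27.9 in the wild type. The 3 secondary wall genes CESA4, CESA7 and CESA9 had both lc1 arrays below both wild-type arrays, beside 23.2% of all tested probe sets. Their summed signal was 211.8 and 138.4 in lc1 and 365.8 and 412.3 in the wild type. Their part in the CSL values was not tested. The 31 MADS-box genes were taken by name alone, and 13 of them, under the floor on all 4 arrays, were not tested. Of the 18 tested, 5 (27.8%) had an unadjusted limma p under 0.05, beside 8.16% of all tested probe sets. Among these, 1 was higher and 4 were lower (beside 3.39% and 4.77%). MADS15, which was lower, had 656.7 and 1322 in lc1 against 2476 and 2321 in the wild type (log2 difference -1.36 ± 0.30, SE). MADS47, the higher gene, had 164.3 and 105.2 in lc1 against 78.6 and 54.2 in the wild type (1.01 ± 0.35, SE, log2). The part of the MADS-box genes in the CSL values was not tested either.

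Both wall genes that were higher at that level belong to sugar nucleotide supply. UGD3, a UDP-glucose dehydrogenase, had 1091 and 794.8 in lc1 against 575.5 and 518.7 in the wild type (0.77 ± 0.24, SE, log2). SUS1, a sucrose synthase that yields UDP-glucose, had 759.7 and 587.1 in lc1 against 326.3 and 470.4 in the wild type (0.77 ± 0.27, SE, log2). In both the genotypes did not overlap, with lc1 above, as in 16.4% of all tested probe sets. The limma adjusted p was 0.448 and 0.529.

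The lists closest to the CSLA and CSLC products held few genes. XXT1, which adds xylose to the xyloglucan backbone, had 714.4 and 449.7 in lc1 against 568.0 and 559.8 in the wild type, a log2 difference of 0.01 ± 0.27 (SE). XTH8, which cuts and rejoins xyloglucan, had 545.1 and 283.7 in lc1 against 289.3 and 270.5 in the wild type, a difference of 0.49 ± 0.33 (SE). The 4 mannanase genes MAN1, MAN4, MAN6 and MAN7 had log2 differences from -0.30 to 0.30, and the 8 xylan genes from -0.28 to 0.17.

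**Figure D5:**
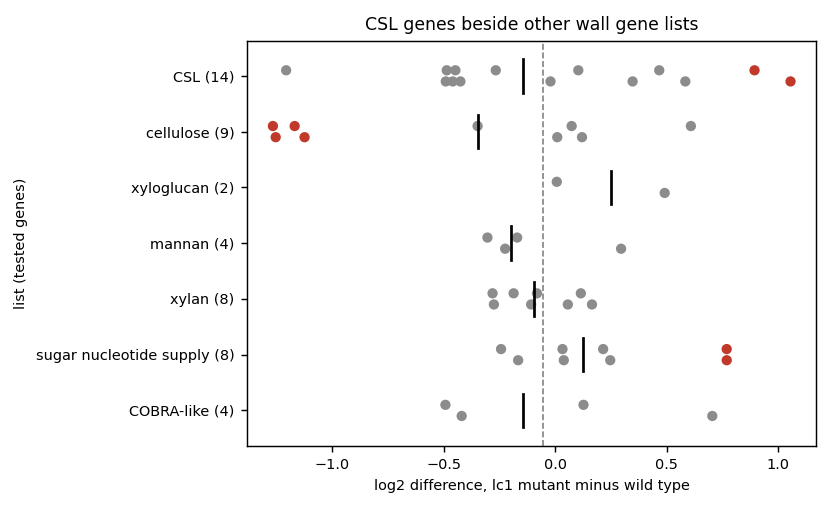
Log2 difference (lc1 minus wild type) of each tested gene in the CSL group and in 6 other wall gene lists, with the number tested in parentheses; red points have an unadjusted limma p under 0.05, bars are list medians and the dashed line is the median of all tested probe sets. The 4 red cellulose synthase genes lie below -1, and the red CSL points are CSLE1 and CSLE2.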

How the data were processed

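RNA of lc1 mutant and wild-type collars was measured on 2 arrays per genotype. The deposited values are intensities, 1 for each probe set on each array, which per the series' design text are signals of the Affymetrix Microarray Suite, version 5.0. R 1.8.0 is named in the submitters' processing notes. Detection calls were not used here. Of 57381 probe sets, the 123 controls with identifiers starting with AFFX were left out. Reporter probe sets, marked RPTR, were kept, and RPTR-Os-K01193-1_at is among the 9 probe sets called. The arrays were not at one level as deposited, so each was scaled to the same median. The 18 values of 0 were set to 0.05 and signals put on a log2 scale. Probe sets from the 40th percentile of the mean log2 signal upward (6.01 as a signal) were tested with limma 3.58.1 in R 4.3.3 (lmFit and trended eBayes with a genotype term only, 2-sided, Benjamini-Hochberg, threshold 0.05), and the fit was tested on simulated data. A gene's brightest probe set, by mean log2 signal over all 4 arrays, lc1 included, stands for it.

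Names came from the platform annotation and the gene table of assembly ASM3414082v1: 22436 probe sets had 1 gene, 95 several and 34727 none. No pair of arrays shared more than 1.64% identical signals. Every member is given; full values go to the brightest probe set of each class and to members above the floor on both arrays of a genotype with an unadjusted p under 0.05, a 2-fold difference or genotypes that do not overlap, and other members are described beside them. A fold bound is the geometric mean of the brighter genotype over that of the dim one after lifting dim arrays to their floors. The members and lists were chosen with earlier results of these data known. Of the lists written, those for callose and for enzymes that break down mixed-linkage glucan matched no probe set. Markers of dividing cells and epidermis and the MADS-box genes were also read, with median log2 differences of 0.17, -0.25 and -0.28. Alternatives were other scalings, filters, an offset, no trend, a replicate block and leaving out each array.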

Additional observations from a re-analysis of the deposited data

How the results depend on the processing

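No CSL gene passed limma after adjustment in any setting except without lc1 array 2, where 1 (CSLE2) did in a fit that called 1163 probe sets (3.39%), so that the count ranged from 0 to 1 over the fits without a single array. The number of CSL genes at an unadjusted limma p under 0.05 was 2, became 1 without an intensity trend, and ranged from 1 to 4 without single arrays. The number of probe sets called over the whole array moved most: 1 as deposited, 4 under quantile normalization, 2 without the filter, 32 with the filter at the 60th percentile, 31 with an offset of 16, 0 without an intensity trend (limma) and 634 with a replicate block, and from 4 to 1163 without single arrays, against 9. With the block 0 CSL genes were called, and it rests on 1 residual degree of freedom. Deviations of arrays with the same number correlated at -0.04. With 2 arrays per genotype this cannot decide whether the numbers are a pairing, and the labels do not state one. Without the filter the CSLD median was -0.25 instead of 0.35, since CSLD5 entered it, and the CSLA median 0.02 instead of -0.27, since CSLA9 did. Leaving out single arrays, the CSLC median ranged from -0.51 to -0.19, the CSLD median from 0.0097 to 0.69, and the median of all CSL genes from -0.35 to 0.26. CSLF6 changed sign, ranging from -0.39 without lc1 array 1 to 0.59 without lc1 array 2, with -0.38 without wild type 2. The related wall genes at an unadjusted limma p under 0.05 numbered from 2 to 8 without single arrays, against 6. With an array left out, its genotype is a lone array assumed to vary like the other genotype. Signals as deposited had a median shift of 0.22 (log2, lc1 over wild type), and differences in that setting are relative to it. Weak signals near the floor limit what can be said of 8 of the 20 genes.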
